A study of Rattus norvegicus with 8 samples.

Results

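The genes described here are interferon regulatory factors and genes that interferon induces: Irf1, Irf3, Irf7, Irf8, Irf9, Stat2, Mx1, Mx2 and Psmb8. They were chosen by name, as the non-control spots whose gene name equals 1 of these 9 symbols. Of the 9 names, 8 had a spot, with 1 spot each, out of 43379 non-control spots and 35250 gene names on the array. The remaining name, Irf8, was carried by no spot.

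Total RNA came from the dentate gyrus (DG), the hippocampal field of granule neurons, of 8 adult female Sprague-Dawley rats, 8 to 9 weeks old. All 8 rats were ovariectomized (OVX) and went through status epilepticus (SE), a state of continuous seizures, evoked by 16 mg/kg of the glutamate receptor agonist kainic acid. The 4 COS rats received oil, and the 4 CES rats received estradiol (E2), 4 doses of 2 μg, of which 2 preceded SE and 2 followed it. According to the sample records pentobarbital ended SE after 5 h. The study's methods describe the kainic acid dose, the order of the injections, the drug that ended SE and the time of tissue collection differently, so the time between SE and collection is not settled. Groups of the study without SE were not analysed here, so the values compare E2 with oil after SE and say nothing of the change from a rat without SE. Loss of the ovaries is shared by both groups, and no rat with ovaries was measured here.

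In each of 4 arrays on a single slide, 2 rats of the same group were hybridized together, 1 labeled with Cy3 and the other with Cy5. In both groups Cy3 marked replicates 1 and 3, and Cy5 marked replicates 2 and 4. Dye was thus balanced between the groups, while array and group cannot be told apart except through the spread between arrays. From 30690 to 38553 spots per rat had a foreground of at least 2 times the local background, and 21372 genes were quantified in all 8 rats. A level is the log2 of background-subtracted fluorescence over the median of the valid spots of the same label, so that 0 is the median spot of that rat. Levels of different probes are not comparable with each other.

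Interferons are secreted proteins by which cells warn their neighbours of infection or damage. Sensors of foreign or misplaced nucleic acid activate Irf3 and Irf7, which switch on the interferon genes. Interferon receptors then act through Janus kinases on STAT proteins. Stat2 and Irf9 belong to the complex that binds the interferon-stimulated response element (ISRE). The gamma-activated site (GAS) is the element through which interferon gamma acts, for example before Irf1. Among the products of the induced genes are Mx1 and Mx2, GTPases that block viruses, and Psmb8, a catalytic subunit that converts the proteasome to the immunoproteasome, which prepares peptides for MHC class I. In brain, microglia, astrocytes, endothelial cells and neurons can all respond to interferon.

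The level of each gene rests on a single 60-base probe. Those of the genes with the largest differences and of the Mx pair are shown 5′ to 3′, because each value below is the fluorescence of that sequence alone. Positions are those of the array files in the rat assembly rn4.

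Psmb8, chr20:4787980-4788039, minus strand: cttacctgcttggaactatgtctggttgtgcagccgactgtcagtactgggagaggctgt
Irf1, chr10:39224461-39224695, plus strand: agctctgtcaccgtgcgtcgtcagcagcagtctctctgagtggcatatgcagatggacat
Irf9, chr15:33744668-33744727, plus strand: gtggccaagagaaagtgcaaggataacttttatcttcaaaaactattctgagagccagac
Mx1, chr11:37439631-37439690, minus strand: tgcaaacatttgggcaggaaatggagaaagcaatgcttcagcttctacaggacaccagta
Mx2, chr11:37568920-37570815, plus strand: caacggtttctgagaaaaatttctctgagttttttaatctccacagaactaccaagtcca

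The genomic span of the Irf1 probe is 235 bases, that of the Stat2 probe 257 bases and that of the Mx2 probe 1896 bases, so these probes map in pieces separated by a gap. The other 5 probes map as 1 unbroken stretch. The Mx1 and Mx2 probes, although from paralogous genes on the same chromosome, share no run of bases longer than 6. In the best ungapped alignment 22 of 60 bases of this pair match.

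All 8 genes had a lower mean level in the CES than in the COS rats, and 5 of them passed the test. Irf1, Irf3, Irf9, Stat2 and Psmb8 were called lower in CES, none was called higher, and Irf7, Mx1 and Mx2 did not pass. Over all 21372 genes, 28.3% were called lower by the same test and 5.79% higher. The median difference of the 8 genes was -0.75 on the log2 scale, beside -0.25 for all genes, that is -0.50 relative to all genes. A difference below 0, whatever its p, was found for 68.5% of all genes. Irf1, Irf3, Irf9 and Psmb8 had every CES rat below every COS rat, a pattern that 19.8% of all genes showed, while the opposite pattern was shown by none of the 8 and by 1.61% of all genes. At an unadjusted p under 0.05, 6 of the 8 were lower, beside 36.5% of all genes.

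The share of lower calls over all genes depended on the scaling. As reported here, 6054 genes were lower and 1238 higher in CES. After loess and Aquantile normalization 1896 were lower and 3045 higher, and when the scaling median was taken over spots valid in every rat, 1720 were lower and 3352 higher. The median of all genes moved from -0.25 to 0.05 and 0.15 in these settings. All 8 differences stayed below 0 there, and Irf1 was the member that still passed the test. Scaling over spots valid in every rat moves all genes of a rat by the same amount, so the differences shifted together. Irf1 went from -1.35 to -0.95 and Stat2 from -0.57 to -0.17. The median of the 8 genes relative to all genes was -0.50 under both scalings, and -0.48 with loess and Aquantile.

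**Figure D1:**
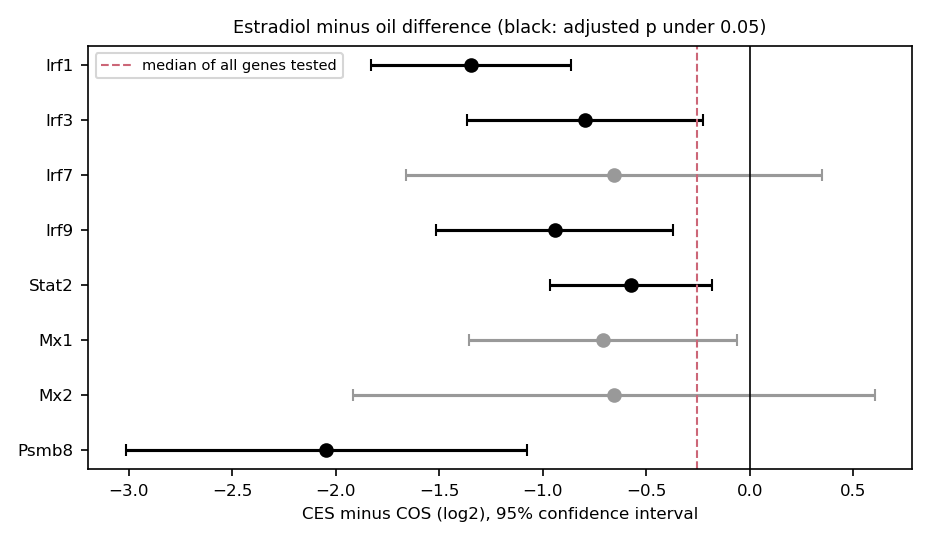
Difference between the CES and COS rats (log2, horizontal axis) for each gene with its 95% confidence interval, 4 rats per group; black points passed the test at an adjusted p of 0.05 and the dashed line is the median of all 21372 genes, -0.25. All 8 points lie to the left of 0, from -0.57 for Stat2 to -2.05 for Psmb8, and the intervals of Irf7 and Mx2 cross 0.

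Of the factors that act upstream on the interferon genes, Irf3 passed the test and Irf7 did not. Irf3, which is present in most cells without induction, had log2 levels of 4.52, 4.65, 5.07 and 4.56 in COS and of 4.41, 4.23, 3.79 and 3.20 in CES. No values overlapped, yet CES replicate 1 lay just under COS replicate 1. The difference was -0.80 (SE 0.25, limma adjusted p = 0.0370), or -0.54 relative to all genes. Without CES replicate 4 it was -0.50 and did not pass (limma adjusted p = 0.0611). Irf7, itself induced by interferon, had log2 levels of 3.56, 2.67, 1.90 and 1.66 in COS and of 1.68, 2.44, 2.34 and 0.72 in CES. The COS rats alone covered a range that included 3 of the 4 CES rats. Its difference of -0.65 (SE 0.45, limma adjusted p = 0.284) had a 95% confidence interval from -1.66 to 0.35, which includes 0. The difference was -0.32 without COS replicate 1 and -1.01 without CES replicate 2, and passed in neither case. The spot of CES replicate 2 was among those that the scanner software marked as outliers.

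Irf9 is the DNA-binding subunit of the ISRE-binding complex. Its log2 level in COS replicates 1 to 4 was 2.69, 2.29, 2.51 and 2.19, against 1.10, 2.09, 1.72 and 1.0 in CES replicates 1 to 4. The groups did not overlap, although CES replicate 2 lay just under the lowest COS rat. The difference was -0.94 (SE 0.26, limma adjusted p = 0.0206), or 1.92-fold, which is -0.69 relative to all genes. Its partner Stat2 had log2 levels of 0.07, -0.51, -0.08 and -0.73 in COS and of -0.84, -0.93, -0.43 and -1.34 in CES. Here the groups overlapped, since CES replicate 3 stood above COS replicates 2 and 4. The Stat2 difference was -0.57 (SE 0.18, limma adjusted p = 0.0314), or 1.49-fold, which is -0.32 once the median of all genes is taken off.

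Irf1, the factor that both types of interferon induce and that in turn activates Psmb8 and MHC class I genes, had the second largest difference. Its log2 level was 0.17, -0.17, -0.09 and -0.64 in COS replicates 1 to 4. In CES replicates 1 to 4 it was -1.64, -1.27, -1.22 and -1.99. The groups did not overlap. The means were -0.18 ± 0.34 in COS and -1.53 ± 0.36 in CES (SD, n = 4 each). The difference of -1.35 (SE 0.22, limma adjusted p = 0.00417) corresponds to a 2.54-fold lower level, or 2.13-fold relative to all genes. This probe was dim, and of the COS rats 3, and of the CES rats 2, showed it well above background by the mark of the scanner software, the exceptions being Cy3 rats.

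Irf8, which microglia and other myeloid cells need for their development, had no spot of that name. A single unnamed probe is described in the array files by ICSBP, an older name of Irf8. It was not valid in CES replicate 1, so no difference was fitted. Its foreground was 4.0, 4.5, 3.8 and 4.6 times background in COS replicates 1 to 4 and 1.7, 2.9, 21.9 and 9.0 times in CES replicates 1 to 4. The CES rats lay on both sides of the COS rats.

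Psmb8 showed the largest difference of the 8. In COS replicates 1 to 4 its log2 level was 3.20, 2.83, 3.04 and 3.1, and in CES replicates 1 to 4 it was 0.39, 2.50, 0.98 and 0.12. The COS rats lay close together, with a mean of 3.04 ± 0.16 (SD, n = 4), while the CES rats were spread widely, with a mean of 1.00 ± 1.06 (SD, n = 4). CES replicate 2 came near the COS range and the other CES rats lay well below it. The difference was -2.05 (SE 0.43, limma adjusted p = 0.00822), a level 4.13-fold lower in CES with a 95% confidence interval from 2.11- to 8.08-fold. Relative to all genes it was -1.79, or 3.46-fold lower. The interval assumes an equal spread in both groups. With the methods' unequal-variance test the SE was 0.54 and the adjusted p was 0.131. Within the Cy3 rats the difference was -2.43 and within the Cy5 rats -1.66.

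Neither antiviral GTPase passed the test. For Mx1 the log2 levels were 0.03, -1.07, -0.35 and -1.13 in COS and -1.40, -0.72, -1.36 and -1.89 in CES. CES replicate 2 stood above COS replicates 2 and 4, and the other CES rats lay below all COS rats. The Mx1 difference was -0.71 (SE 0.29, limma adjusted p = 0.0835), and it was -1.22 within the Cy3 rats and -0.20 within the Cy5 rats. The Mx1 probe was dim too, and 3 COS rats and 2 CES rats had it marked as well above background. For Mx2 the log2 levels were 1.73, 0.38, 1.05 and -0.27 in COS and -0.03, 1.55, 0.26 and -1.51 in CES. CES replicate 2 was exceeded only by COS replicate 1, while CES replicate 4 was the lowest rat of all. The Mx2 difference was -0.66 (SE 0.56, limma adjusted p = 0.394), with a 95% confidence interval from -1.92 to 0.60. It rested on single rats, being -0.09 without CES replicate 4 and -1.39, past the test, without CES replicate 2.

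**Figure D2:**
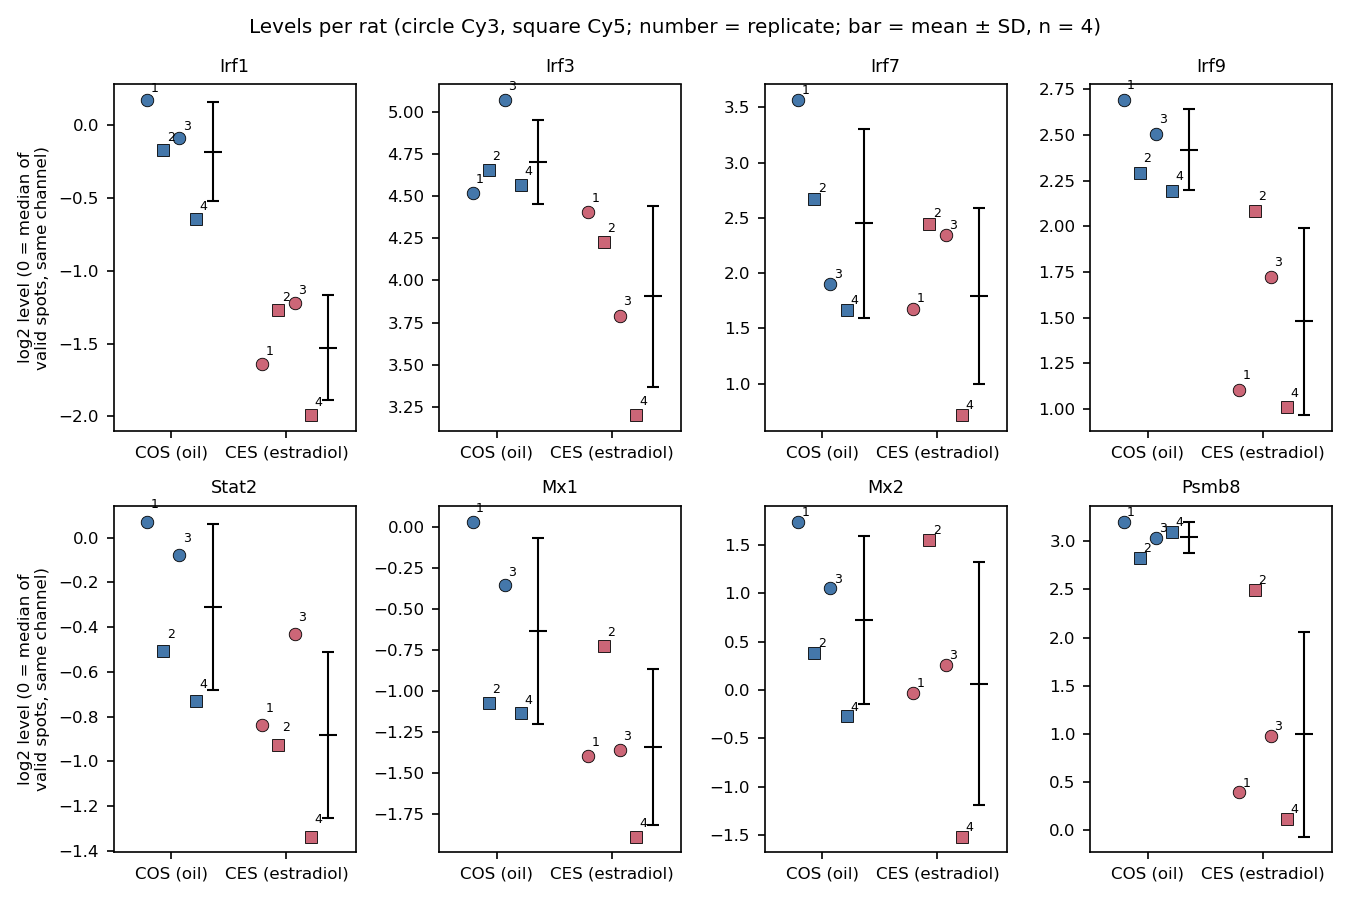
Log2 level of each gene (vertical axis, 0 is the median valid spot of the same channel) in each of the 4 COS and 4 CES rats; circles carried Cy3, squares Cy5, the digits are replicate numbers and the bars show mean ± SD. The groups are apart for Irf1, Irf3, Irf9 and Psmb8, CES replicate 4 is the lowest CES rat in all 8 panels and CES replicate 2 is the highest CES rat in 5.

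The rats kept a similar order from gene to gene. CES replicate 4 was the lowest CES rat for 8 of the 8 genes, and COS replicate 1 the highest COS rat for 7 of 8. Taken over the 8 genes, the median deviation from the COS mean was -0.77, -0.41, -0.71 and -1.62 in CES replicates 1 to 4. The corresponding median over all genes was -0.13, -0.47, 0.10 and -0.56. In CES replicate 2 the interferon genes therefore deviated about as much as all genes did, and in the other 3 CES rats they deviated further. Without CES replicate 2, Irf1, Irf3, Irf9, Stat2, Mx1, Mx2 and Psmb8 passed the test, 7 of the 8 genes, and 7002 of all 21372 genes were called lower. Without COS replicate 3, Irf1 was the only one to pass, and the calls over all genes fell to 932. Here the calls of the 8 genes moved with those of the whole array, but this did not hold for every rat left out. Without CES replicate 3, 4 of the 8 genes and 7029 of all genes were called lower, beside 5 and 6054 with all rats.

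**Figure D3:**
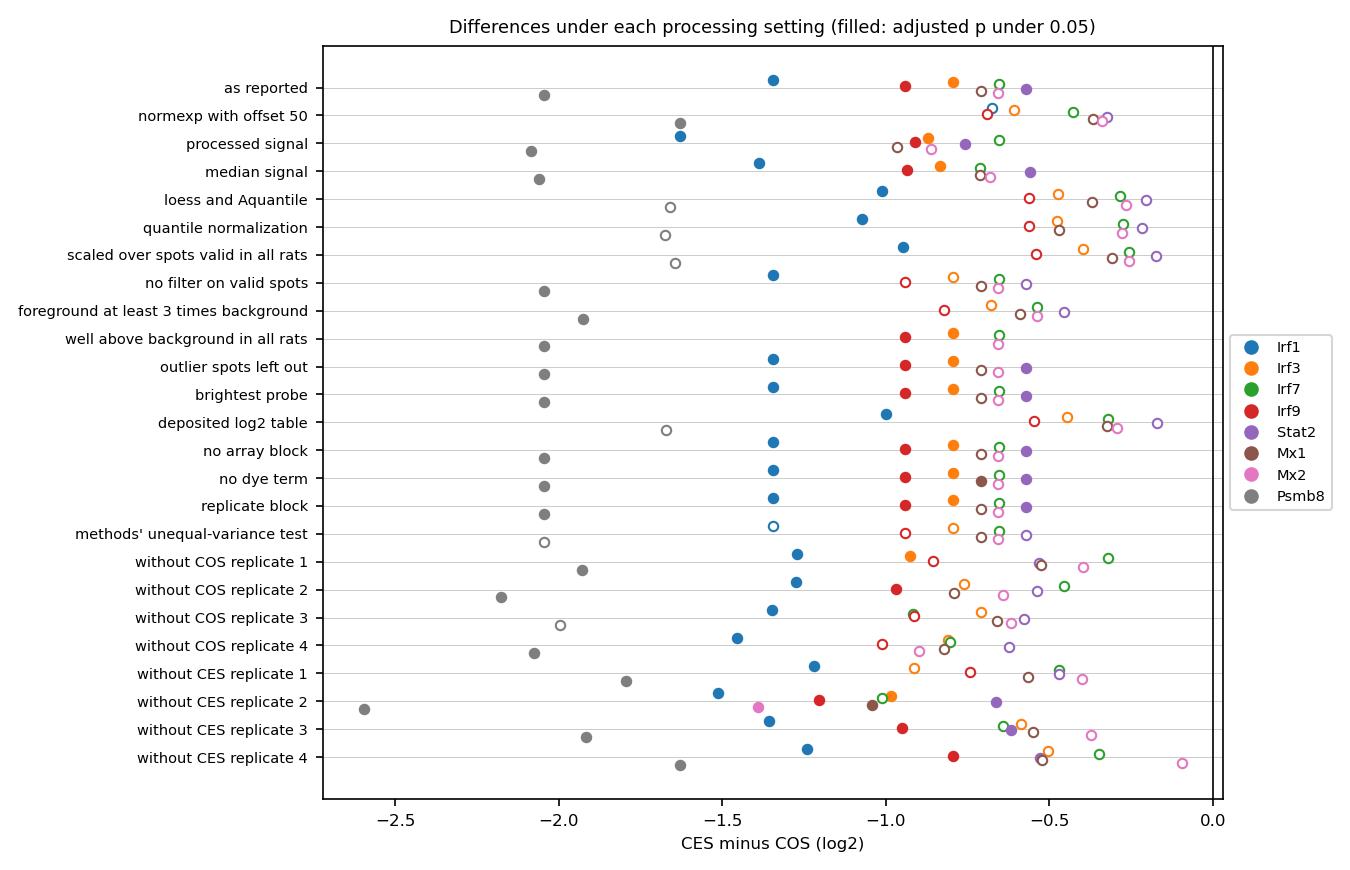
Difference between CES and COS (log2, horizontal axis) of the 8 genes as reported and under each of 24 alternative settings, including each rat left out; filled points passed at an adjusted p of 0.05. All points lie below 0, Irf1 and Psmb8 are filled in most settings and Irf7 in none.

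Across the 8 rats the levels of the 8 genes moved together to unequal degrees. Pearson's r was highest between Irf9 and Psmb8 (0.96) and between Irf1 and Irf9 (0.94), and r between Mx1 and Mx2 was 0.90. The lowest was 0.47, between Irf3 and Irf7. These values describe 8 rats of both groups, which share the group difference, the dye and the array scaling.

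The genes whose level was most like that of Irf7 over the 8 rats were Oas1i (r = 0.99), Oas1a (0.96) and Oas1b (0.96), all members of the family that makes 2-5 oligoadenylate after sensing double-stranded RNA. The other 2 of the 5 nearest were transcripts without a gene symbol, at 0.96 and 0.94. Their group differences, like that of Irf7, did not pass for Oas1a (-0.46, limma adjusted p = 0.424) and Oas1b (-0.58, limma adjusted p = 0.497). The 5 genes most like Mx1 were Clec2d (r = 0.996), Clic5 (0.98), Pigzl1, Max and Ndst1 (0.97 each). Each r is over the same 8 rats and was picked as the highest of 21372 genes.

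A promoter sequence was available for 8 of the 9 genes, all but Mx2, from RefSeq on the assembly GRCr8. The 250 bases before each start site were searched on both strands for the ISRE core, GAAA followed after 2 free bases by GAAA, and for the GAS motif TTCNNNGAA, which reads the same on both strands. The ISRE core was found before Irf7, and the GAS motif before Irf1, Irf8, Irf9 and Psmb8, that is in 4 of 8. Among all 33469 promoters of that length 3.41% held the ISRE core and 7.67% the GAS motif. The stretches around the matches of the measured genes are shown so that each match can be read in its context. Capitals mark the match, and position -1 is the last base before the start site.

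Irf1, GRCr8 chr10:38417773-38417821, plus strand, bases -162 to -114: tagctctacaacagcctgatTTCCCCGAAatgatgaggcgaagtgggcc
Irf9, GRCr8 chr15:33065717-33065765, plus strand, bases -119 to -71: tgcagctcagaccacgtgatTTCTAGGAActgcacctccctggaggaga
Psmb8, GRCr8 chr20:4657248-4657281, minus strand, bases -250 to -217: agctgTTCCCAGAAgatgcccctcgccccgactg
Irf7, GRCr8 chr1:205800063-205800112, minus strand, bases -89 to -40: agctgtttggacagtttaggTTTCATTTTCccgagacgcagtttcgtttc

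The Irf7 match is the ISRE core read from the opposite strand. A match is a description of these letters, and no binding was measured here. No match was found in the windows before Irf3, Stat2 and Mx1. In the wider lists of the interferon pathway, described next, 39 of 85 promoters found (45.9%) held the ISRE core. Of those called lower in CES 21 of 40 held it, and of those not called 9 of 23. The GAS motif was held by 15 of the 85 promoters (17.6%), by 7 of the 40 called lower and by 5 of the 23 not called.

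The other genes of the pathway were taken from 6 lists written from general knowledge, though with earlier results of these data known. The lists held 105 genes, of which 77 were quantified. Of these 77, 42 were called lower in CES and 0 higher, and 71 had a difference below 0. Over all genes 28.3% were called lower, 5.79% were called higher and 68.5% had a difference below 0. Their median difference was -0.84, or -0.59 relative to all genes. With loess and Aquantile normalization 14 were called lower and 2 higher, and without COS replicate 3, 4 were called lower.

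The subunits of the immunoproteasome and the proteins that load peptides on MHC class I are the partners of Psmb8. They were called lower in 10 of 10 quantified genes, beside 28.3% of all genes. Psmb9, the neighbouring catalytic subunit, had log2 levels of 4.18, 3.27, 3.23 and 2.83 in COS and of 0.88, 3.05, 1.63 and 0.61 in CES. As for Psmb8, CES replicate 2 stood apart from the other CES rats, here inside the COS range. The Psmb9 difference was -1.83 (SE 0.50, limma adjusted p = 0.0204). The third catalytic subunit, Psmb10, differed by -0.71 (limma adjusted p = 0.0163), and the proteasome activator Psme1 by -1.67 (limma adjusted p = 0.00496). The peptide transporter Tap1 differed by -1.48, the peptide-trimming enzyme Erap1 by -1.20, the MHC class I light chain B2m by -1.03, and Tapbp, which holds the transporter to MHC class I, by -1.01. Smaller differences were found for Psme2 (-0.99), the partner of Psme1, and for Tap2 (-0.89), the partner of Tap1. With loess and Aquantile normalization 2 of the 10 passed, and without COS replicate 3 none did.

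Of the other interferon-induced genes, 22 of 39 quantified were called lower and 0 higher, beside 28.3% and 5.79% of all genes. Their median difference was -0.94. Cxcl10, a chemokine that attracts T cells, had the lowest fitted difference of the list. Its log2 levels were 4.18, 3.44, 2.88 and 2.33 in COS and -1.47, 1.81, -0.92 and -2.79 in CES. The groups did not overlap, and CES replicate 2 was again the highest of its group by a wide margin. The Cxcl10 difference was -4.05 (SE 0.82, limma adjusted p = 0.00702), but its probe was marked well above background in only 2 of the 4 CES rats, so the size of the difference is uncertain. The membrane proteins that restrict virus entry, Ifitm3, Ifitm1 and Ifitm2, differed by -2.66, -2.31 and -2.31, and Bst2, which tethers budding viruses, by -2.59. Also lower were the GTPase Gbp2 (-2.33), the exonuclease Isg20 (-2.24) and the antiviral enzyme Rsad2 (-1.88). The ubiquitin-like modifier Isg15 had a difference of -1.70 that did not pass (limma adjusted p = 0.0536), and its groups overlapped. Of these 39 genes, 7 passed as lower and 1 as higher with loess and Aquantile normalization.

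On the input side of the pathway, among ligands, receptors and kinases, 2 of 5 quantified were lower, beside 28.3% of all genes. These were the interferon gamma receptor chain Ifngr1 (-0.84, limma adjusted p = 0.00864) and the kinase Jak2 (-1.10, limma adjusted p = 0.0102). The other chain of the interferon gamma receptor, Ifngr2, had a difference of -0.43 that did not pass (limma adjusted p = 0.0676). With loess and Aquantile normalization none of the 5 passed, Ifngr1 reaching an adjusted p of 0.0669 and Jak2 of 0.0604. The type I receptor chain Ifnar1 had a difference of -0.26 (limma adjusted p = 0.220), close to that of the median gene, and it lay above 0 in 4 of 24 alternatives. Ifnar2 was named by no spot. The ligands Ifnb1 and Ifng were not valid in all 8 rats, so no difference was fitted for either and their levels are not known here. Ifnb1 was marked well above background in 0 rats of either group, and Ifng in 0 COS rats and 1 CES rat. Other interferons were not in the lists. Among other STAT and IRF factors 1 of 5 was lower, Stat3 (-2.10, limma adjusted p = 0.00501), which mainly serves cytokines of the interleukin-6 family.

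Among the sensors of nucleic acid and their adaptors, 3 of 11 quantified were lower. These were the adaptor Myd88 (-1.69, limma adjusted p = 0.00691), the receptor of double-stranded RNA Tlr3 (-0.996, limma adjusted p = 0.0189) and the receptor of single-stranded RNA Tlr7 (-0.73, limma adjusted p = 0.0233). The share is close to the 28.3% of all genes. Of the negative regulators 4 of 7 were lower and 0 higher. They were the phosphatases Ptpn6 (-1.94) and Ptpn2 (-1.67), the Janus kinase inhibitor Socs3 (-1.31) and the exonuclease Trex1 (-0.73), which removes stray DNA. The probes of Socs3, Myd88 and Tlr7 were each marked well above background in 2 of the 4 CES rats.

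**Figure D4:**
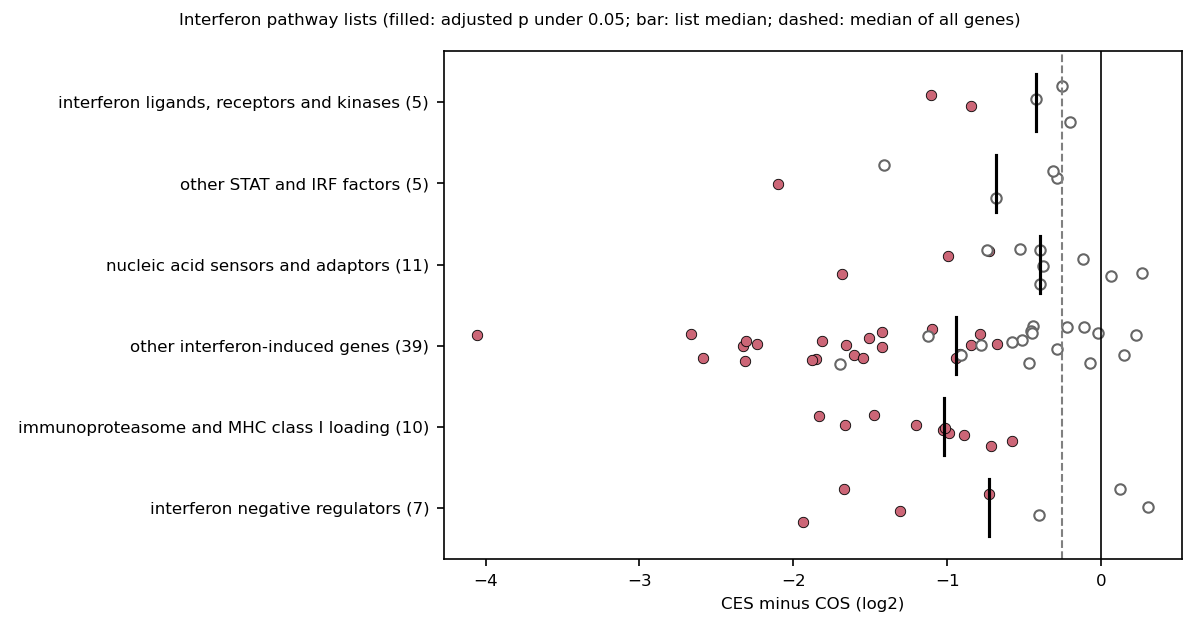
Difference between CES and COS (log2, horizontal axis) of every quantified gene of 6 interferon pathway lists; filled points passed the test, the bars are list medians and the dashed line is the median of all genes. All 10 genes of the immunoproteasome and MHC class I list are filled, and Cxcl10 lies farthest left at -4.05.

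Markers of some cell types in the DG also differed between the groups, in directions that varied from list to list. The summed level of 12 microglial markers ran from 261 to 373 in the COS and from 121 to 215 in the CES rats, in units of the median spot, and did not overlap. Of these markers 6 were called lower and 1 higher, beside 28.3% and 5.79% of all genes. Their median difference was -0.64, or -0.39 relative to all genes. Cd68 had the lowest (-2.19), Itgam differed by -1.92, and the higher one was P2ry12 (0.93), a receptor of resting microglia. Of 10 leukocyte markers, 7 were not valid in all rats, the T and B cell markers Cd3g, Cd8a and Ms4a1 and the neutrophil markers S100a8 and S100a9 among them. The summed level of the other 3 ran from 59.6 to 109 in COS and from 7.72 to 26.5 in CES. It was led by Lyz2, a myeloid gene also expressed by microglia (-2.54). Of the 3, 1 was called lower and 2 were not called. Their differences ran from -2.54 to 0.23, with a median of -0.51. Of 7 endothelial markers 4 were lower and 1 higher, with overlapping sums of 45.7 to 63.3 in COS and 41.6 to 54.8 in CES. Of 7 astrocyte markers 1 was lower and 2 were higher, and none of 6 oligodendrocyte markers was called. Nor was any of 5 quantified markers of choroid plexus or of 2 of red blood cells. The choroid plexus sum was 616 in COS replicate 2, against 13.1 to 47.7 in the other COS rats and 16.2 to 194 in CES.

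Of 5 quantified markers of granule neurons 2 were lower, Dsp (-1.24) and C1ql2 (-1.23), and 3 were not called. Over all genes 28.3% were called lower and 5.79% higher. The median difference of the 5 granule markers was -0.28, that is -0.02 relative to all genes. Their summed levels overlapped, at 15.1 to 26.7 in COS and 12.8 to 17.8 in CES. The defining granule cell marker Prox1 was not valid in all 8 rats. Markers of pyramidal neurons of the neighbouring CA fields, 4 of 5 called higher and 1 lower, summed to 13.2 to 20.1 in COS and 22.0 to 43.8 in CES. These sums did not overlap. In tissue RNA fewer cells of a type cannot be told apart from less RNA per cell. The part of these cell type differences in the interferon genes was not tested.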

How the data were processed

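RNA of the DG of 4 COS and 4 CES rats was measured on 4 dual-colour Agilent arrays, 1 rat per channel, groups and dyes being taken from the sample records. The deposited scanner files (Agilent Feature Extraction 10.7.3.1, per the labels) hold fluorescence intensities of spots and of the background around them, before normalization. A table of log2 values was deposited as well, each column of which equals the background-subtracted median signal of its channel relative to its median. It was used as an alternative. Both files of an array hold both channels, and each rat was read from its own dye.

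Following the methods of the study, a spot was valid when its foreground was at least 2 times background. The background median was subtracted from the mean signal, and the result was taken relative to the median over valid spots of the same label, averaged over the spots of a gene valid in all 8 rats (27642 spots) and taken to log2. The mean signal is written with 3 significant digits. No spot was saturated. Probes were named through RefSeq accessions where they matched (17512 of 41012 probes). The 2 groups were compared with limma 3.58.1 (R 4.3.3), with dye as a fixed term and array as a random block (duplicateCorrelation, statmod 1.5.0; consensus correlation -0.00653), two-sided, with Benjamini-Hochberg adjustment over 21372 genes and a threshold of 0.05. At this correlation the block had little effect, and without it the same 5 members were called. In the settings in which 1 member passed, the consensus correlation ran from 0.22 (without COS replicate 3) to 0.57 (normexp). The part of this correlation in the loss of calls was not tested. The median standard error was 0.20 and the number of arrays limits the precision. On simulated data with these groups and dyes (21372 genes), the fit recovered 51% of 100 genes changed by 1 on the log2 scale. It recovered 89% of 100 changed by 2, with 5 false calls of 145. The simulated rats were independent, without an array effect or a shift of all genes. These figures therefore do not give the error rate in the real data. The iterative renormalization of the study was not repeated.

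The genes and lists were chosen with earlier results of these data known. Named were all members, the called genes of each pathway list up to the 8 with the largest differences, Isg15, Ifnar1, Ifnar2, Psmb9 and Psmb10, and the 5 genes most like Irf7 and Mx1. An item of the lists is not reported here. Oas1a and Oas1b values and single marker genes were given after they were seen. Alternatives covered the background correction, the scaling, the filter, the fitted terms, the methods' unequal-variance test, the deposited log2 values and each rat left out. Motifs and figures used Python 3.11.15, pandas 2.3.3 and matplotlib 3.10.9.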

Additional observations from a re-analysis of the deposited data

Results flagged for a closer look

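Of 74 gene and group combinations examined for a rat far from the other 3 of its group, 2 stood out, where chance alone gives about 1 in 20. Psme1 was low in COS replicate 4, with a log2 level of 5.23 against 5.60 to 5.62 in the other COS rats. Ptpn6 was high in CES replicate 2, at 4.07, the other CES rats lying between 2.11 and 2.44.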

How the results depend on the processing

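The differences of the 8 genes lay below 0 in all 187 combinations of gene and alternative, of which 47 lost the call, 3 gained it (Mx1 without the dye term, Mx1 and Mx2 without CES replicate 2) and 137 stayed on the same side of the threshold. Irf1 passed in 20 of 22 alternatives that quantified it, Psmb8 in 18 of 24, Irf9 in 12 of 24, Irf3 in 10 of 24 and Stat2 in 10 of 23. The number of members called lower was 1 with normexp (offset 50), loess and Aquantile, quantile normalization, scaling over spots valid in every rat, a foreground of at least 3 times background (which left Irf1 out), and the deposited log2 values, 2 without a filter, and 3 when every rat had to be well above background (which left out Irf1, Stat2 and Mx1). Pathway genes called lower were 11, 14, 19, 15, 22, 15 and 21 in the first 7 of these settings. All genes called lower and higher were 461 and 126 with normexp, 1896 and 3045 with loess, 2226 and 3059 with quantile, 1720 and 3352 with scaling over common spots, 1936 and 3285 with the deposited values, and 2789 and 421 without a filter. With a foreground of 3 times background 2835 were lower. The methods' unequal-variance test with Benjamini-Hochberg adjustment called 0 members, 0 pathway genes and 0 genes in either direction, against 3 members and 6114 genes at an unadjusted p under 0.05. Causes were not tested. Leaving out each rat in turn gave 1 (without COS replicate 3) to 7 (without CES replicate 2) members called lower, 4 to 52 pathway genes, 932 to 7029 genes lower and 262 to 1860 higher. Without CES replicate 1, 2 members and 21 pathway genes were called. The members' median relative to all genes ran from -0.85 to -0.25 over these.

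Same-numbered rats of the 2 groups share the dye. After group and dye were removed their residuals correlated between -0.28 and 0.08, and no rat was closest to its own number. Rats of the same dye but another number correlated between -0.17 and 0.06. With so few rats of each dye, this cannot exclude that the numbers pair rats. With the replicate number as a block 5 members and 43 pathway genes were called lower. The probes of Irf1, Mx1 and Stat2 were not well above background in some Cy3 rats.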
